A study of Mus musculus with 8 samples.

Results

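The p53 family, the Cdkn2 locus and their best known target genes were followed across 4 isogenic mouse mammary tumour cell lines, 4T1.2, 4T1, 66cl4 and 67NR. The genes were chosen by symbol, and all 10 had a row among the 27179 genes of the count table: Trp53, Trp63, Trp73, Cdkn1a, Cdkn2a, Cdkn2b, Mdm2, Bbc3, Ccng1 and Sesn2. RNA from untreated cultures, with 2 biological replicates of each line, gave 8 libraries of 37159840 to 66269681 counts assigned to genes. 66cl4 and 67NR are described in the study as siblings of 4T1 and 4T1.2 with a lower metastatic potential, and the labels list no genetic modification for any line. Each line is an established culture, so that a difference between lines rests on cell populations and not on animals. The question asked of these genes was which tumour suppressor transcripts were absent in which line.

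p53, encoded by Trp53, is a transcription factor that is stabilised when DNA is damaged and then switches on genes that arrest the cell cycle, repair DNA or start cell death. Trp63 and Trp73 encode its relatives, of which p63 is known for maintaining the basal layer of stratified and glandular epithelia, the mammary gland included. Mdm2 encodes the ubiquitin ligase that degrades p53 and is itself switched on by p53. At the Cdkn2 locus, Cdkn2a encodes p16Ink4a, an inhibitor of the kinases CDK4 and CDK6, and, through another first exon, p19Arf, which restrains Mdm2, whereas the neighbouring Cdkn2b encodes the related inhibitor p15Ink4b. Loss of either arm of this locus or of p53 is a common event in tumours.

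In 4T1 and 4T1.2 cells, 3 of the 10 transcripts were absent, taken here as at most 3 counts in every library of a line: Cdkn2a, Cdkn2b and Trp73. In 66cl4 and 67NR cells only Cdkn2b was absent by this limit. With a limit of 10 counts, Trp73 was absent in all 4 lines and Trp63 in 4T1. Trp63 was not absent anywhere at 3 counts, but it stayed under 0.5 CPM (counts scaled to library size) in 4T1 and 4T1.2 and was abundant in 66cl4. Trp53 itself was transcribed in every line, at a level 4.88-fold lower in 4T1 and 4T1.2 than in 66cl4 and 67NR, and the 5 p53 targets among the genes, Mdm2, Cdkn1a, Ccng1, Sesn2 and Bbc3, were lower with it. With 4T1 and 4T1.2 averaged and set against the average of 66cl4 and 67NR, called the pooled comparison here, 8 of 8 genes that could be tested passed as lower. Cdkn2a was among the 8 only through its counts in 66cl4 and 67NR, so its direction was fixed before the test. A gene passed when its adjusted p was under 0.05 by the quasi-likelihood test of edgeR, with Benjamini-Hochberg adjustment over 13913 genes. Of all genes tested, 76.7% passed in that comparison, 38.6% as lower and 38.1% as higher. A test for any difference among the 4 lines also called 8 of 8, where 84.7% of all genes were called. Trp73 and Cdkn2b had too few counts to be tested. These are levels in bulk RNA, in which fewer cells with a transcript and less of it per cell cannot be told apart, and they say nothing of protein.

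Stretches of reference sequence are given for the genes on which the comparisons turn. Upstream windows were searched for the p53 decamer consensus, of which a p53 response element holds a pair. Of 32851 windows of 300 bases in the RefSeq table (GRCm38.p6; from 250 bases before a start site to 50 after it), 8.36% held the decamer at least once, and 0.0731% held 2 copies with a spacer of at most 13 bases. Of 14 windows matched to 9 of the 10 genes, 4 held it, at Cdkn1a, Ccng1, Mdm2 and Trp53. The window of Cdkn1a was the only one of the 14 with 2 copies, which lay 12 bases apart. The 250 bases before each start site are shown from 5′ to 3′ on the strand of the gene, with the decamers in capitals.
Cdkn1a, chr17:29090729-29090978, plus strand: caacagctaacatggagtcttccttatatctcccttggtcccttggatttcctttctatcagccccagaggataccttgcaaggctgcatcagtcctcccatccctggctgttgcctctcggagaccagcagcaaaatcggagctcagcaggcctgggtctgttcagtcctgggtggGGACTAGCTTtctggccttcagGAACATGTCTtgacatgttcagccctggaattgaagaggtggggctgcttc
Ccng1, chr11:40755287-40755536, minus strand: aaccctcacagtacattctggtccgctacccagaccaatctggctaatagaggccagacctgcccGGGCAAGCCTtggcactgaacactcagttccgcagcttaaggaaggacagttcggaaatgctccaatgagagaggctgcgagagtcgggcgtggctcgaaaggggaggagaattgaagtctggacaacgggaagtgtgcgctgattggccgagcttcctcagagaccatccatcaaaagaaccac
Mdm2, chr10:117710759-117711008, minus strand: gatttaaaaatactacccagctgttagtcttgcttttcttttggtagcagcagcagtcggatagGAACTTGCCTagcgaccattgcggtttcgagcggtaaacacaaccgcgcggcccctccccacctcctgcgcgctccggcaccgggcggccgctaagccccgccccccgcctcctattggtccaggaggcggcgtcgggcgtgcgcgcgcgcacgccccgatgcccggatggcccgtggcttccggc
Trp53, chr11:69580109-69580358, plus strand: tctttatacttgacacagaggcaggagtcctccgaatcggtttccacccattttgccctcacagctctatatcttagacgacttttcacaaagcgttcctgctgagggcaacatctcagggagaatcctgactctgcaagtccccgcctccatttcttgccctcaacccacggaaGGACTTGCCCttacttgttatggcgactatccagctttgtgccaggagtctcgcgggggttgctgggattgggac
The decamers of Cdkn1a began 73 and 51 bases before the start site, that of Trp53 75 bases before it, and those of Ccng1 and Mdm2 185 and 186 bases before it. No window of Cdkn2a, Cdkn2b, Sesn2, Trp73 or Bbc3 held the decamer, and Trp63 had no window. Sequence outside the windows and inexact matches were not searched, so a gene without a match here may have a site elsewhere. A match describes letters in the reference and was not tested for binding.

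For Cdkn2a, the join of exon 1 and exon 2 in its coding transcripts shows what a gene count cannot separate. The first exons lie 12.1 kb apart on chromosome 4 (minus strand), and exon 2 is shared. The last 40 bases of each first exon are in lower case and the first 40 bases of exon 2, chr4:89276946-89276985 in GRCm38, are in capitals.
p16Ink4a, exon 1 ending at chr4:89281986-89282025: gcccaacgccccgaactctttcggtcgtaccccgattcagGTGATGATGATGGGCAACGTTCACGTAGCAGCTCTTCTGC
p19Arf, exon 1 ending at chr4:89294334-89294373: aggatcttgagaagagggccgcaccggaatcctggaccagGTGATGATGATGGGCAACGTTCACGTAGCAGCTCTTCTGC
Reads on exon 2 belong to either transcript, and the counts were summed over the gene, so that the values of Cdkn2a hold for p16Ink4a and p19Arf together.

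Trp53 (Entrez 22059, chromosome 11, 69580348 to 69591873, GRCm38) was counted 8521 and 14864 times in 67NR, 8474 and 9770 times in 66cl4, 2993 and 1791 times in 4T1 and 2995 and 2216 times in 4T1.2. The corresponding levels were 237 ± 5.92 CPM (SD, n = 2) for 67NR, 203 ± 21.8 for 66cl4, 43.9 ± 7.34 for 4T1 and 45.9 ± 9.66 for 4T1.2. No library of 4T1 or 4T1.2 reached the level of any library of 66cl4 or 67NR. The pooled log2 fold change was -2.29 (SE 0.11, edgeR adjusted p = 4.3e-08). Between 66cl4 and 4T1.2, the lines next to each other across that gap, the test passed (4T1.2 against 66cl4 -2.14, edgeR adjusted p = 1.5e-06). Within each pair the lines were not told apart: 4T1.2 against 4T1 gave 0.07 (SE 0.16, edgeR adjusted p = 0.83), with overlapping libraries, and 66cl4 against 67NR gave -0.22 (SE 0.15, edgeR adjusted p = 0.27). Per kilobase of exon (RPKM), Trp53 stood at 24.6 in 4T1.2 and 23.5 in 4T1, where 72.3% and 71.7% of the genes tested were lower.

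Trp63 (Entrez 22061, chromosome 16, 25683763 to 25892088) showed the widest range of the family. It had 6205 and 6155 counts in 66cl4, 1268 and 1847 in 67NR, 22 and 14 in 4T1.2 and 10 and 6 in 4T1. The means were 137 ± 0.189 CPM in 66cl4, 32.3 ± 3.30 in 67NR, 0.317 ± 0.0994 in 4T1.2 and 0.147 ± 0.0243 in 4T1. The groups did not overlap, and 66cl4 exceeded 67NR by a log2 fold change of 2.09 (SE 0.11, edgeR adjusted p = 1.1e-06). Against 66cl4, the level was lower by a log2 fold change of -8.75 (SE 0.18) in 4T1.2 and -9.83 (SE 0.20) in 4T1. Between 4T1.2 and 4T1 the difference was 1.08 (SE 0.35, edgeR adjusted p = 0.060), and it passed without replicate 2 of 4T1.2 (1.36, edgeR adjusted p = 0.049). Trp63 was the only gene of the 10 that passed as higher in 66cl4 than in 67NR, and the counts do not separate the long from the N-terminally truncated p63 transcripts.

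Trp73 (Entrez 22062, chromosome 4, 154056249 to 154139875) had 4 and 9 counts in 67NR, 4 and 1 in 66cl4, 0 and 1 in 4T1 and 0 and 0 in 4T1.2. Against the library totals these counts lie near the limit of 3 counts, which is worth 0.0453 to 0.0807 CPM per library, and the lines were not compared by a test. On the other strand, 280 bases of Trp73 exons are shared with exons of Trp73os, and it is not stated whether counting used the strand.

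**Figure D1:**
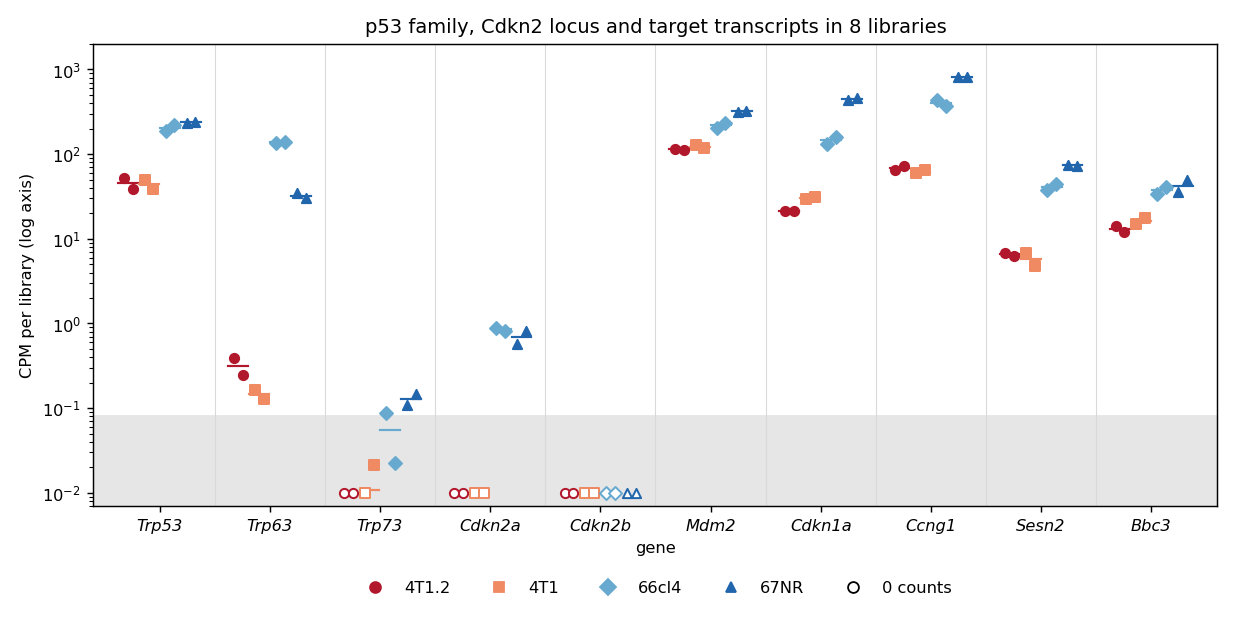
Each point is 1 library, with its gene on the horizontal axis and its level in CPM on a log axis, coloured by line. Short bars are means of 2 libraries. Open points are libraries with 0 counts, drawn at the lower edge. The grey band ends at 0.0807 CPM, the largest value that 3 counts take when scaled to library totals. The points use TMM library sizes, on which 3 counts differ slightly from that. The 4T1 and 4T1.2 points lie below the 66cl4 and 67NR points for Trp53, Trp63, Cdkn2a and the 5 targets on the right, and Cdkn2b is at 0 in all 8 libraries.

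At the Cdkn2 locus, Cdkn2b (Entrez 12579, chromosome 4, 89306289 to 89311032) had 0 counts in all 8 libraries. Scaled to library totals, this allows at most 0.0807 CPM in the shallowest of them. Cdkn2a (Entrez 12578, chromosome 4, 89274473 to 89294619) had 0 counts in all 4 libraries of 4T1.2 and 4T1, 40 and 37 counts in 66cl4, and 21 and 50 in 67NR. The level was low also where it was found, at 0.855 ± 0.0411 CPM in 66cl4 and 0.692 ± 0.168 in 67NR. Against a floor of 3 counts per library, Cdkn2a was at least 14.1-fold lower in 4T1 and 4T1.2 than in 66cl4 and 67NR. It was at least 16.2-fold lower in 4T1.2 than in 66cl4 and at least 12.1-fold lower in 4T1 than in 67NR. The pooled comparison passed the test (edgeR adjusted p = 4.5e-06), but only the counts in 66cl4 and 67NR kept Cdkn2a for testing, which fixed its direction. The bounds and floors cover counting error only. The 66cl4 and 67NR levels were not told apart (log2 fold change 0.27, SE 0.30, edgeR adjusted p = 0.51). In all, 281 of 25275 genes (1.11%) had the same pattern as Cdkn2a, with at most 3 counts in every 4T1 and 4T1.2 library and at least 10 in every library of the other lines, and 351 had the opposite one.

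The neighbours of Cdkn2a showed whether the transcripts around it were missing as well. Within 2 Mb of its start the table held 46 genes, of which 19 had at most 3 counts in every library, 15 had at least 10 in every library and 10 could be tested, Cdkn2a included. Mtap, a housekeeping enzyme of methionine salvage whose gene starts 137 kb from Cdkn2a, was abundant in every line, with 55940 to 83694 counts in the libraries of 4T1 and 4T1.2 and 44502 to 71054 in those of 66cl4 and 67NR. The log2 fold change of Mtap was 0.07 (SE 0.07, edgeR adjusted p = 0.40). On that side Klhl9, Hacd4 and Focad were also counted in all lines and were lower in 4T1 and 4T1.2, by log2 fold changes of -0.35 (SE 0.09), -1.44 (SE 0.08) and -0.88 (SE 0.07), whereas Mllt3 was higher by 0.37 (SE 0.07). The non-coding Wincr1 was higher (0.92, SE 0.16) and the row of the microRNA gene Mir31 was lower (-0.74, SE 0.14). Ifnz was lower by -0.94 (SE 0.28) and lost the call without replicate 2 of 67NR (-0.65, edgeR adjusted p = 0.10), and as a member of a multicopy interferon cluster its counts are uncertain. On the other side, beyond Cdkn2b, Dmrta1, Zfp352 and Gm12633 had at most 6 counts in any library. Elavl2, the next gene there, which encodes an RNA-binding protein of neurons and starts 1937 kb away, had 0, 0, 0 and 1 counts in the 4T1.2 and 4T1 libraries and 520, 449, 501 and 895 in the 66cl4 and 67NR libraries.

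A wider window of 6 Mb, chosen after the values were seen, held 77 genes, of which 4 had the pattern of Cdkn2a: Cdkn2a, Elavl2, Bnc2 and Tusc1. Bnc2, which encodes a zinc finger protein, had 0, 1, 0 and 0 counts in the 4T1.2 and 4T1 libraries, 564 and 717 in 67NR and 289 and 267 in 66cl4. Tusc1 had 0, 0, 0 and 1 counts in 4T1.2 and 4T1, 104 and 279 in 67NR, and 985 and 982 in 66cl4. The next genes beyond Tusc1, Caap1 and Plaa, were present in every line, with 773 to 1445 counts and 3780 to 7564 counts. On the side of Bnc2 the run was not continuous, since Mtap, Klhl9, Hacd4, Focad and Mllt3 lie between Bnc2 and Cdkn2a and were counted in all lines. Between Cdkn2a and Tusc1, besides Elavl2, the protein-coding Cdkn2b, Dmrta1, Zfp352 and Izumo3 had at most 6 counts in any library. The transcribed pseudogene Gm12669, between Elavl2 and Tusc1, had 7659 to 14480 counts per library. Whether reads of other genes were counted on Gm12669 was not checked. RNA counts do not show whether the DNA of the locus is present, and this was not tested.

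**Figure D2:**
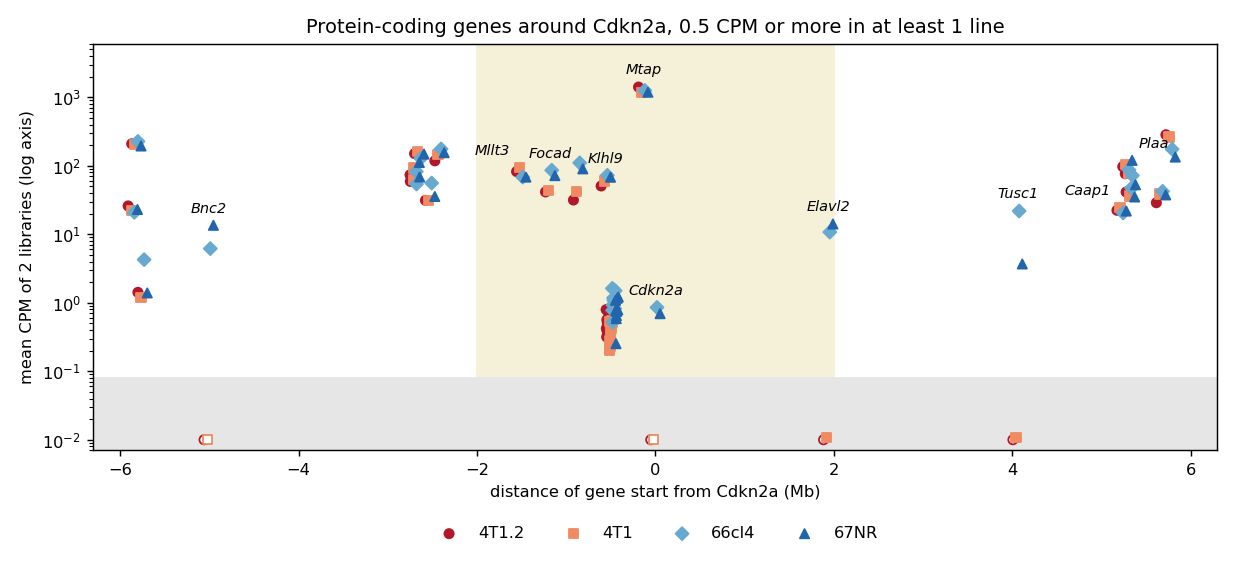
The 33 protein-coding genes with at least 0.5 CPM in 1 or more lines are placed by the distance of their start from that of Cdkn2a in Mb (horizontal axis), with the mean CPM of 2 libraries per line on a log axis. The shaded column marks the window of 2 Mb, the grey band ends at the largest value of 3 counts scaled to library totals, and open points are at 0. At Cdkn2a, Elavl2, Bnc2 and Tusc1 the 4T1 and 4T1.2 points fall in the grey band while the 66cl4 and 67NR points stay above it, and Mtap lies at 1160 to 1410 CPM in all lines.

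Among the 5 p53 targets, Cdkn1a (Entrez 12575, chromosome 17, 29090979 to 29100722), which encodes the cyclin-dependent kinase inhibitor p21, had the largest fitted pooled difference. It had 437 and 455 CPM in 67NR, 133 and 160 in 66cl4, 29.4 and 31.1 in 4T1 and 21.2 and 21.3 in 4T1.2. No libraries of different lines overlapped. The pooled log2 fold change was -3.33 (SE 0.08, edgeR adjusted p = 1.4e-10), and every step in the order 67NR, 66cl4, 4T1, 4T1.2 passed the test, with -1.60 (SE 0.10, edgeR adjusted p = 2.4e-06) for 66cl4 against 67NR, -2.28 (SE 0.10, edgeR adjusted p = 3.5e-08) for 4T1 against 66cl4 and -0.51 (SE 0.10, edgeR adjusted p = 0.0074) for 4T1.2 against 4T1. In the last comparison Cdkn1a was the only gene of the 10 that passed, where 19.3% of all genes did, 9.9% as lower and 9.37% as higher. A non-coding gene on the other strand shares 273 bases of exon with Cdkn1a.

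Ccng1 (Entrez 12450, chromosome 11, 40748552 to 40755309), which encodes cyclin G1, had 811 and 824 CPM in 67NR, 434 and 372 in 66cl4, 59.3 and 64.7 in 4T1 and 65.1 and 72.8 in 4T1.2. Sesn2 (Entrez 230784, chromosome 4, 132492804 to 132510456), a stress-induced inhibitor of mTORC1 signalling, had 73.7 and 73.3 CPM in 67NR, 38.2 and 44.7 in 66cl4, 6.83 and 4.81 in 4T1 and 6.89 and 6.21 in 4T1.2. Both fell into the same order, with 67NR above 66cl4 and both above 4T1 and 4T1.2. The pooled log2 fold change was -3.13 (SE 0.08, edgeR adjusted p = 2.7e-10) for Ccng1 and -3.15 (SE 0.11, edgeR adjusted p = 3.5e-09) for Sesn2. Between 66cl4 and 67NR it was -1.02 (SE 0.10, edgeR adjusted p = 4.8e-05) for Ccng1 and -0.83 (SE 0.15, edgeR adjusted p = 0.0013) for Sesn2. 4T1.2 and 4T1 were not told apart for either gene (0.15, SE 0.10, and 0.16, SE 0.16).

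Mdm2 (Entrez 17246, chromosome 10, 117688875 to 117710758) had the smallest fitted pooled difference of the 5 targets, with 318 and 328 CPM in 67NR, 206 and 236 in 66cl4, 127 and 118 in 4T1 and 116 and 112 in 4T1.2. Its pooled log2 fold change was -1.17 (SE 0.07, edgeR adjusted p = 1.1e-07), and 66cl4 was below 67NR by -0.55 (SE 0.09, edgeR adjusted p = 0.0011). Bbc3 (Entrez 170770, chromosome 7, 16308398 to 16318334), which encodes the pro-apoptotic protein PUMA, had 36.0 and 49.0 CPM in 67NR, 34.1 and 40.5 in 66cl4, 14.8 and 17.6 in 4T1 and 14.1 and 12.1 in 4T1.2. The pooled log2 fold change was -1.45 (SE 0.12, edgeR adjusted p = 2.0e-06). The 66cl4 and 67NR libraries overlapped, and Bbc3 was the only one of the 5 targets that did not pass there (-0.19, SE 0.16, edgeR adjusted p = 0.37). Whether its difference departs from those of the other targets was not tested. Between 66cl4 and 67NR, 5 of the 8 genes tested passed, 4 lower in 66cl4 and Trp63 higher, where 44.6% of all genes passed, 22.4% as lower and 22.3% as higher.

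Each of the 4 comparisons of 4T1 or 4T1.2 with 66cl4 or 67NR called 8 of 8 genes tested, all lower in the former. Cdkn2a could only come out lower in these comparisons, as its counts in 66cl4 and 67NR alone kept it for testing. These comparisons share libraries, and the share of all genes called was 68.8% for 4T1.2 against 66cl4, 67.8% for 4T1.2 against 67NR, 70.0% for 4T1 against 66cl4 and 68.2% for 4T1 against 67NR. As lower alone, these shares were 34.5%, 34.1%, 35.2% and 34.4%. The counts of 8 of 8 are therefore to be read against a background in which most genes passed. Set against Trp53 in the same library, per kilobase, Mdm2 was at 1.36 to 1.89 times the level of Trp53 in 4T1.2 and 4T1 and 0.668 to 0.843 times in 66cl4 and 67NR. Bbc3 was also higher relative to Trp53 in 4T1.2 and 4T1, at 0.252 to 0.431 times against 0.146 to 0.192 times. For Ccng1 the ranges overlapped, at 0.648 to 0.997 and 0.914 to 1.87 times, and Sesn2 was lower, at 0.0875 to 0.112 against 0.143 to 0.223 times. Cdkn1a stood highest in 67NR, with 1.73 and 1.74 times the level of Trp53 in 67NR, 0.657 and 0.676 times in 66cl4 and 0.371 to 0.741 times in 4T1.2 and 4T1, a range that holds the 66cl4 values.

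**Figure D3:**
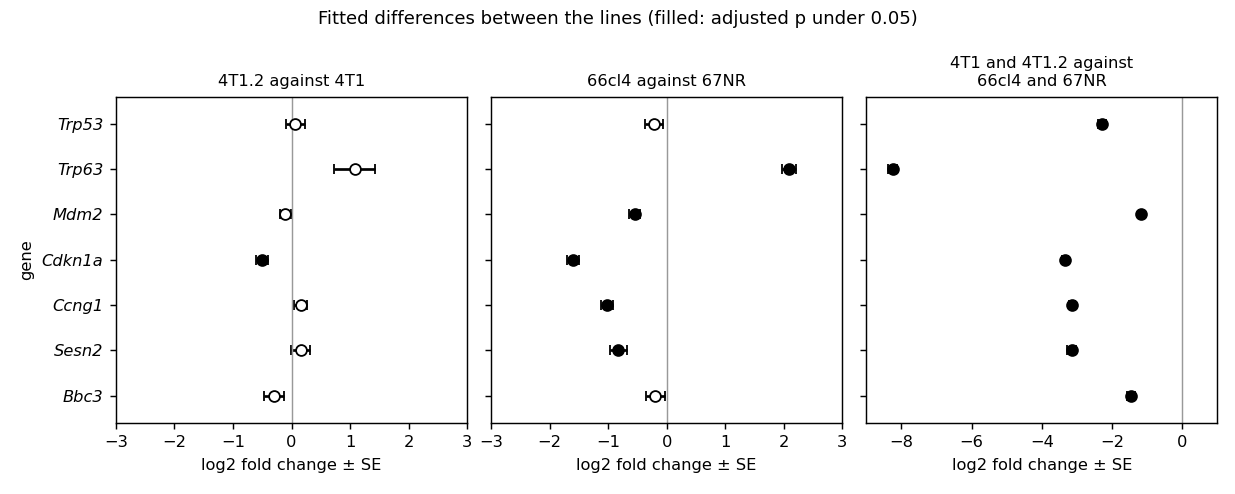
Points are fitted log2 fold changes with bars of 1 SE (horizontal axis, with a wider scale in the right panel) for 7 genes, in the comparisons named above each panel, and filled points have an adjusted p under 0.05. Only Cdkn1a is filled for 4T1.2 against 4T1, Trp63 alone is above 0 for 66cl4 against 67NR, and all 7 are below 0 in the pooled comparison. Cdkn2a is left out because its difference is a bound.

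A list of 30 further p53 target genes was set beside them, of which 29 could be tested and Pmaip1, a pro-apoptotic gene, had too few counts. In the pooled comparison 22 were lower in 4T1 and 4T1.2, 3 were higher and 4 did not pass, with a median log2 fold change of -1.40 against -0.013 over all genes tested. The share called lower was 75.9%, where 38.6% of all genes were. Eda2r and Perp lie at opposite ends of the list, so holding them at their bounds could not move the median. Eda2r, a death-domain receptor of the tumour necrosis factor family, had 0, 3, 0 and 2 counts in the 4T1.2 and 4T1 libraries, whereas 67NR had 4213 and 6973 and 66cl4 had 2932 and 2705. Psrc1, a microtubule-binding protein, was at 247 ± 10.7 CPM in 67NR and 97.3 ± 10.4 in 66cl4, and at 8.75 ± 0.347 in 4T1 and 8.28 ± 0.102 in 4T1.2 (log2 fold change -4.19, SE 0.08, edgeR adjusted p = 4.2e-11). Gdf15, a stress cytokine, also passed as lower, with 2, 0, 1 and 0 counts in the 4T1.2 and 4T1 libraries, 9 and 15 in 67NR and 7 and 22 in 66cl4. Eda2r and Gdf15 were kept for testing only by their counts in 66cl4 and 67NR, which fixed their direction. The 3 that were higher were Perp, Rrm2b and Gadd45a. Perp, a desmosome protein of epithelia and also a target of p63, had 14.2 ± 0.319 CPM in 4T1.2 and 45.1 ± 3.53 in 4T1 and 0 counts in 66cl4 and 67NR, at least 450-fold higher in the former. Its direction was likewise fixed, as only 4T1 and 4T1.2 kept Perp for testing. Rrm2b, a subunit of ribonucleotide reductase, and Gadd45a, a growth arrest gene, had log2 fold changes of 1.17 (SE 0.06) and 1.11 (SE 0.10). The 4 that did not pass were Ddb2 (0.08, SE 0.09), Tigar (0.02, SE 0.08), Tnfrsf10b (-0.16, SE 0.09) and Xpc (-0.13, SE 0.06), and Tnfrsf10b passed without replicate 1 of 4T1 (-0.24).

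Between 66cl4 and 67NR, 21 of the 29 were lower in 66cl4 and 3 were higher, with a median of -0.69, where 22.4% of all genes were lower and 22.3% higher. The largest differences among those lower were those of Zmat3, an RNA-binding protein (-1.94, SE 0.15), Psrc1 (-1.34, SE 0.10), Tigar, a regulator of glycolysis (-1.31, SE 0.12), and Aen, an apoptosis-enhancing nuclease (-1.30). Those higher in 66cl4 were Xpc (0.63, SE 0.09), Sesn1 (0.41, SE 0.10) and Btg2 (0.34). Btg2 lost its call without either library of 4T1.2 or 67NR or replicate 2 of 66cl4 (log2 fold changes of 0.20 to 0.44). With all libraries kept, Btg2 also lost its call when no genes were removed by annotation. Sesn1 lost its call without replicate 1 of 66cl4 (0.33) or of 67NR (0.37). 67NR had the highest mean of the 4 lines in 20 of the 29 genes and in all 5 targets described above. The share of all genes with their highest mean in 67NR was not computed, so these counts have no background beside them. Between 4T1.2 and 4T1, 7 of the 29 passed (24.1%), near the 19.3% of all genes, and the count was 3 without replicate 2 of 4T1.2. Sulf2 (1.72, SE 0.10), Phlda3 (0.60, SE 0.13) and Sesn1 (0.34, SE 0.10) were higher in 4T1.2. Perp (-1.66, SE 0.12), Trp53inp1 (-1.23, SE 0.12), Tnfrsf10b (-0.51, SE 0.13) and Polk (-0.40, SE 0.10) were lower. Of 19 alternatives, 9 ended the call of Sesn1 (0.26 to 0.41), 5 that of Tnfrsf10b (-0.65 to -0.35), 4 that of Polk (-0.52 to -0.28) and 1 that of Phlda3 (0.45 without replicate 2 of 4T1.2).

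**Figure D4:**
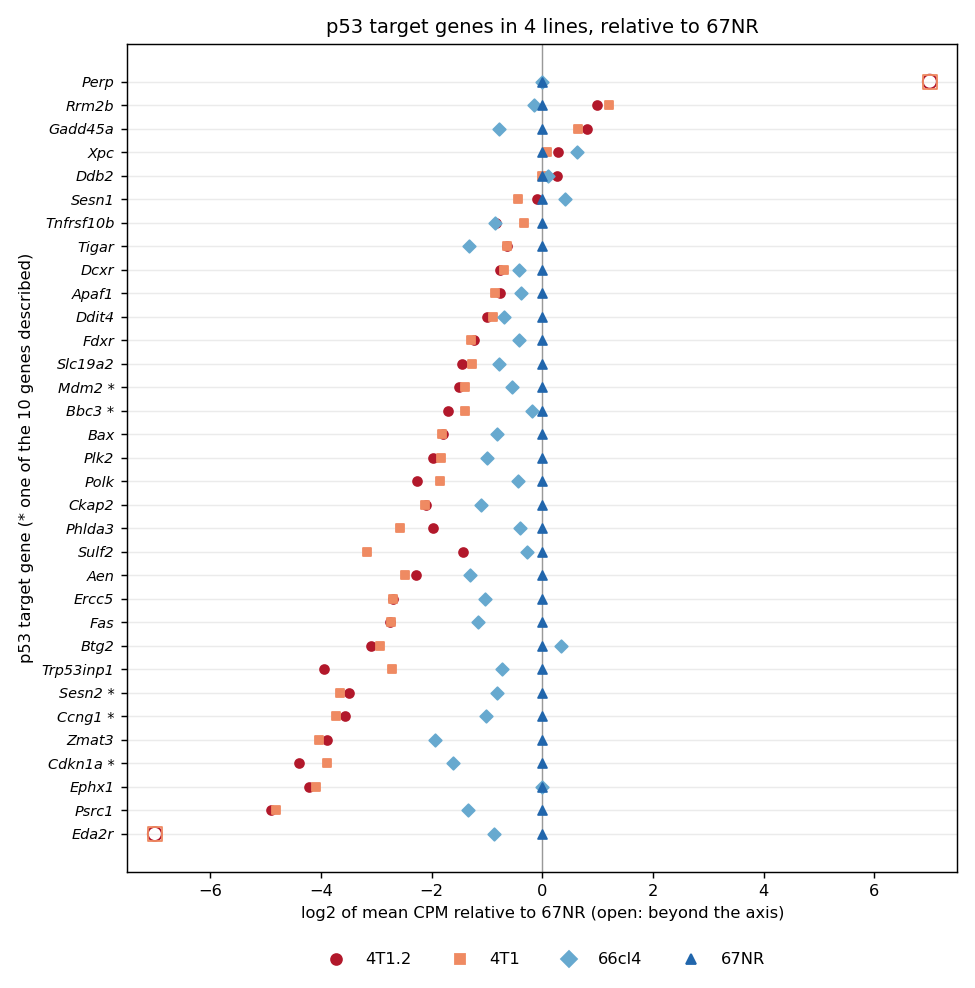
For 33 p53 targets with at least 0.5 CPM in 1 or more lines, the log2 of the mean CPM of each line relative to 67NR is plotted on the horizontal axis, 1 gene per row. 67NR, at 0, has the highest mean in 20 of the 29 further targets tested and 66cl4 in 5, while 4T1 or 4T1.2 has it in 4. The same shares over all genes were not computed. Eda2r and Perp run past the axis in opposite directions, as they are near or at 0 counts in some lines.

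In the pooled comparison 7 of 18 regulators of p53 were higher in 4T1 and 4T1.2 and 7 were lower, with a median of -0.12. The share called was 77.8%, near the 76.7% of all genes. Chek1, a checkpoint kinase, was at 204 ± 4.79 CPM in 4T1 and 193 ± 16 in 4T1.2, and at 50 ± 4.78 in 66cl4 and 50.9 ± 0.618 in 67NR (log2 fold change 1.98, SE 0.07). Trp53bp2 and the deacetylase Sirt1 were also higher, by 1.55 (SE 0.08) and 1.43 (SE 0.07), and the ubiquitin ligase Huwe1 was lower, by -1.06 (SE 0.16). Of the RB pathway and the other inhibitors of cyclin-dependent kinases, 5 of 17 genes tested were higher and 6 were lower (64.7% called), with a median of -0.066. Rb1, which encodes the retinoblastoma protein, was present in every line, with 62.8 ± 1.1 CPM in 67NR, 39.1 ± 0.466 in 66cl4, 17.6 ± 2.25 in 4T1 and 25.0 ± 0.243 in 4T1.2 (pooled log2 fold change -1.24, SE 0.07). Ccnd2 and Rbl2 were lower, by -1.86 (SE 0.06) and -0.70 (SE 0.07), and Cdk4 was higher by 0.70 (SE 0.08). Unlike Cdkn2a and Cdkn2b, the related inhibitors Cdkn2c and Cdkn2d were counted in all lines, at 133 to 180 CPM and 46.1 to 63.8 CPM.

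Of 11 repressors of the Cdkn2 locus that were tested, 5 were higher and 4 lower in 4T1 and 4T1.2, with a median of 0.066. The share called was 81.8%, where 76.7% of all genes passed. Tbx2, a T-box repressor, had 896 and 575 counts in 4T1 and 1344 and 1317 in 4T1.2, whereas 67NR had 4 and 17 and 66cl4 had 13 and 17 (log2 fold change 6.06, SE 0.17, edgeR adjusted p = 6.1e-10). Of the Polycomb genes, Bmi1 was higher by 0.49 (SE 0.06) and Suz12 by 0.41 (SE 0.06). Of the basal epithelial genes linked to p63, 8 could be tested, of which 4 were higher and 3 lower in 4T1 and 4T1.2 (87.5% called), with a median of 0.54. Jag2 and Itga6 were higher in 4T1 and 4T1.2 by 3.21 (SE 0.12) and 2.43 (SE 0.07), and Col17a1 was lower by -1.96 (SE 0.26).

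Over the 8 libraries, the genes whose log2 CPM followed Trp63 most closely were Slc35f3, Lrrc24 and Marchf5, each with a Pearson correlation of 0.999, and 137 of 13912 genes were over 0.99. For Cdkn2a they were Ces1a, Zfp354a and Six3os1, at 0.999, with 249 genes over 0.99. The points are 4 lines with 2 libraries each, so that these values describe a shared order of 4 lines and carry no test. Markers of leucocytes and endothelium were scarce: 8 leucocyte markers summed to 13 to 42 counts per library, with Adgre1 and Cd3e at 0 in all 8, and 5 endothelial markers to 14 to 226. As sums, markers of the mammary epithelium and of fibroblasts were not. The 7 epithelial markers summed to 1475 to 2891 CPM in 4T1 and 4T1.2 and to 465 to 720 CPM in 66cl4 and 67NR. In the 67NR library with the larger sum, 1 marker alone held 32549 of 32654 counts. In 66cl4 the largest marker had 27253 counts, where sums were 32257 and 32488. The largest had 61479 counts in 4T1.2 and 77057 in 4T1, where sums reached 98284 and 133933. Epcam was at 42.8 CPM in 4T1 and 14 in 4T1.2 and at or near 0 in the other lines. The 7 fibroblast markers summed to 116 to 172 CPM in 4T1 and 4T1.2 and to 254 to 514 CPM in 66cl4 and 67NR. In the library with the larger sum, 1 marker alone held 9591 of 9745 counts in 4T1.2 and 6805 of 7089 in 4T1. The largest marker had 16201 counts in 66cl4 and 10023 in 67NR, where sums reached 23240 and 15645. Of 5 fibroblast markers that could be tested, 4 were lower in 4T1 and 4T1.2, among them Pdgfrb (-6.87, SE 0.12), and Pdgfra was higher (0.34, SE 0.08). Col3a1, also among the 4, had at most 3 counts in every 4T1 and 4T1.2 library. Only its counts in 66cl4 and 67NR kept Col3a1 for testing, which fixed its direction. Both summed levels differed between these pairs of lines without overlap, as the p53 genes did, and their part in it was not tested.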

How the data were processed

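Gene expression was measured by RNA-seq in 8 libraries of 4 cell lines, with 2 biological replicates of each line. Per the labels and the methods, the authors prepared TruSeq libraries from total RNA, and, similarly to their endothelial samples, used Rsubread for alignment to mm10 and featureCounts for counts on Entrez genes. Deposited were raw counts per gene, without normalization, and whether the counting used strand is not given in the sources used here. Totals ran from 37159840 to 66269681 counts, which makes 3 counts 0.0453 to 0.0807 CPM per library. Intervals and bounds cover counting error only.

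From these counts the following was computed. filterByExpr with default settings kept 15269 genes. Predicted genes, ribosomal genes and identifiers missing from the RefSeq gene table were then removed, which left 13913. The removed genes held 5.38% to 7.98% of the counts. In R 4.3.3, the quasi-likelihood F-test of edgeR 4.0.16 (with limma 3.58.1) was run with TMM scaling, its legacy fit and a prior count of 0.125 on a mean for each line in all 8 libraries, with 4 residual degrees of freedom and a biological coefficient of variation of 9.74%. Adjusted p-values are Benjamini-Hochberg values over all genes tested. SEs were derived from the F statistic and are approximate. CPM and RPKM used TMM library sizes and the deposited exon lengths. Replicates of a line differed by more than counting noise. The labels call them biological replicates but do not say what was cultured separately, so the p-values measure the spread between these libraries.

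All 10 genes are described. Of the other lists (p53 targets, p53 regulators, the RB pathway, repressors of the Cdkn2 locus, basal genes linked to p63, and cell type markers), members were named where a count was 5 or fewer, and otherwise up to 4 with the largest fitted change among those past the threshold. Genes within 2 Mb of Cdkn2a, genes overlapping one of the 10 and, for genes low in a line, the 3 most correlated genes were also named. Some genes that this rule would name are not reported here. The genes and lists were chosen with earlier results of these data known. A gene's levels with alternative scaling, filters, tests (DESeq2 1.42.0 and limma-voom) and left-out libraries are given in the closing section, and the fit was tested on simulated data. Sequences came from RefSeq promoter windows (GRCm38.p6) and GENCODE transcripts of GRCm38, and the p53 decamer was searched as its IUPAC consensus, which is its own reverse complement. Figures were drawn with matplotlib 3.10.9.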

Additional observations from a re-analysis of the deposited data

How the results depend on the processing

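For the 8 of the 10 genes that could be tested, 1043 of 1050 alternative values kept their direction and their side of the threshold. Trp63 between 4T1.2 and 4T1 gained a call in 3 of the others, which raised the genes called there from 1 to 2 under edgeR's newer fit and with libraries thinned to the smallest total. The sign changed in 4 fits of differences that never passed, all with a library left out. Leaving out each library in turn gave log2 fold changes of -0.16 to 0.26 for Trp53 and -0.061 to 0.44 for Sesn2 between 4T1.2 and 4T1, and of -0.39 to 0.053 for Bbc3 between 66cl4 and 67NR. Among the other genes with a value given, Tigar changed sign in the pooled comparison, with -0.032 to 0.077. With at least 10 counts required in every library Trp63 and Cdkn2a could not be tested, and the genes linked to p63 fell to 4 tested, with 4 called in the pooled comparison (7 otherwise) and 1 between 4T1.2 and 4T1 (3 otherwise). Between 4T1.2 and 4T1, the calls went from 7 to 4 targets and from 3 to 1 repressor when only those lines were fitted, and from 1 regulator to 0 with that filter or with no removal by annotation. The neighbours of Cdkn2a called rose from 8 to 18 of 23 tested with no removal by annotation, which returns predicted genes of the interferon cluster. They also rose to 18 in the window of 6 Mb, chosen after seeing the data. With Cdkn2a included, 10 genes were tested in the window of 2 Mb and 26 in that of 6 Mb. More genes called thus went with more genes tested, and 76.7% of all genes passed in the pooled comparison. The cause of the other shifts was not tested.

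Leaving out each library in turn gave 1 to 2 of the 10 genes called between 4T1.2 and 4T1. For the lists between 4T1.2 and 4T1, it gave 3 to 7 targets, 0 to 4 regulators, 1 to 5 RB pathway genes and 1 to 3 repressors. Between 66cl4 and 67NR it gave 1 to 7 regulators, 6 to 10 RB pathway genes, 2 to 4 repressors and 1 to 4 genes linked to p63. In those fits a lone library is assumed to vary like the other lines. Over all genes, 2681 passed between 4T1.2 and 4T1, 1726 when only those lines were fitted, and 1372 and 1424 without replicate 1 and 2 of 4T1.2. Same-numbered libraries correlated in their deviations at 0.27 for 4T1.2 and 4T1 and at -0.12 for 4T1.2 and 66cl4. The other pairs of lines gave -0.080 to 0.074. The numbers therefore do not pair the libraries across all lines, and whether they pair those of 4T1.2 and 4T1 was not tested. The replicate block changed no call of these 8 genes and raised the regulators called between 4T1.2 and 4T1 to 2. A block crossed in 66cl4, chosen after seeing the data, was looked at for 4T1.2 against 66cl4 only. There it gave 8 of 8 genes called, as without a block, and 10201 of all genes (9574 otherwise). Depth limits what can be said of Trp73 and Cdkn2b, which were untested.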
